A study of Mus musculus with 16 samples.

Results

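This report describes the clustered histone genes of mouse cerebral cortex, that is, the genes whose symbol in the RefSeq gene table is or once was Hist1h, Hist2h, Hist3h or Hist4h followed by the histone's name. The members were the 45 of these genes with an array probe flagged well above background on 4 or more of 16 arrays, among 17436 genes tested. The gene table holds 70 such genes, and 48 of them had a named probe on the array. The newer symbols of the table are used here, with the older symbol given at first mention. By class, the 45 genes were all 6 H1 genes with a probe, 13 of 14 H2A genes, 12 of 12 H2B genes, 5 of 7 H3 genes and 9 of 9 H4 genes. By cluster, 35 belonged to Hist1, 7 to Hist2, 2 to Hist3 and 1 to Hist4. In 39 of the 45 the probe was well above background on all 16 arrays. The rule used no comparison between groups.

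RNA of the cerebral cortex was compared between 4 groups of 4 arrays. They came from male mice of a C57BL/6 backcross, either wild-type littermates or mice labelled Neil1-/-, which carry a germline loss of the DNA glycosylase NEIL1, an enzyme that removes oxidised bases from DNA. Within each genotype 4 arrays came from sham-exposed mice and 4 from mice given 6 Gy of whole-body gamma radiation at 0.74 Gy/min, all taken 20 h after the exposure. Ages of 28 to 42 weeks are given for both genotypes. All groups, sham included, were injected with BrdU (100 mg/kg) once ahead of the exposure and once 2 h later, so every mouse carried this thymidine analogue. The labels do not say whether each array is a separate mouse or a pool, so the p-values measure the spread between these arrays. RNA of the whole cortex was measured, in which fewer cells of a type and less RNA per cell cannot be told apart. Neuron, astrocyte and oligodendrocyte markers were above background on all 16 arrays (7 of 7, 5 of 5 and 5 of 5 genes).

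Core histones H2A, H2B, H3 and H4 form the protein spool of the nucleosome, and linker histone H1 binds the DNA that enters and leaves it. Most of the clustered genes are replication-dependent. Such genes typically lack introns, are transcribed mainly in S phase when DNA is copied, and most of their mRNAs end in a stem loop in place of a poly(A) tail. This does not describe every member. Some have long spans in the gene table, among them H2bc22 (Hist1h2bp, chr13:21787483-21801561). In tissue made mostly of non-dividing cells, part of the transcripts of the clustered genes carries a poly(A) tail. The labelling kit used here primes cDNA with oligo(dT), so the arrays are expected to read mainly such tailed transcripts, and a level here is not the level of the stem-loop form. Coding sequences within a core histone class are nearly identical, so a probe named for 1 gene can also read its copies. The genes of a class are not taken as independent measurements.

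The promoters of these genes carry short elements that differ between classes, so 6 are shown for genes on which the results below turn. Of the 45 genes, 41 matched an entry in the RefSeq promoter table (build GRCm38.p6). No entry was found for H2bc4, H2bc21, H3c7 and H4c14. Each sequence is the 150 bases that end just before the annotated transcript start, written 5′ to 3′ on the strand of the gene. Capitals mark CCAAT (the CCAAT box, or its reverse complement on the other strand), ATTTGCAT (the octamer bound by OCT1, on either strand), AAACACA (the H1 box, on either strand) and TATAAA (the TATA box, on the gene's strand only). H2bc22 (Hist1h2bp), at chr13:21787338-21787487 (plus strand), was the only member called for irradiation. H2bc14 (Hist1h2bm), at chr13:21721894-21722043 (plus strand), and H1f2 (Hist1h1c), at chr13:23738657-23738806 (plus strand), had irradiated arrays above all sham arrays in the labelled knockout. H1f4 (Hist1h1e), at chr13:23622559-23622708 (minus strand), H4c3 (Hist1h4c), at chr13:23698459-23698608 (minus strand), and H4c11 (Hist1h4j), at chr13:21734884-21735033 (plus strand), were called between genotypes.
H2bc22: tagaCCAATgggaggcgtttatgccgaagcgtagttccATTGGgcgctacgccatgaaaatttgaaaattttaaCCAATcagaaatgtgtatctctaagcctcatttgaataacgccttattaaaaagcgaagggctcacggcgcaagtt
H2bc14: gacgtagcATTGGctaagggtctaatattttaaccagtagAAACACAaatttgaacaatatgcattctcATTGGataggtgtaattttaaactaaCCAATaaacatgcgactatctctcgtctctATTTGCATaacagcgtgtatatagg
H1f2: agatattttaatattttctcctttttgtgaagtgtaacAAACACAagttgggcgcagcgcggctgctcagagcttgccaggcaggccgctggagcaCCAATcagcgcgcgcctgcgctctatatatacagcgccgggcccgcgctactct
H1f4: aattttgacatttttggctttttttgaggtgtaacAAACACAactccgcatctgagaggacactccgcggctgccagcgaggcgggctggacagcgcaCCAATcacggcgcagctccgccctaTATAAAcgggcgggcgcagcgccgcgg
H4c3: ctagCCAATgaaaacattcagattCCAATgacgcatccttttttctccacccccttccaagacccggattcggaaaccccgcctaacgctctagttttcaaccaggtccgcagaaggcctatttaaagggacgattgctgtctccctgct
H4c11: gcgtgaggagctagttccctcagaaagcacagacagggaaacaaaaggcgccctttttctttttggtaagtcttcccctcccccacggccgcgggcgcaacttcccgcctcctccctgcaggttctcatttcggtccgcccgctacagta

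Over the 250 bases before the start, the octamer was present in 5 of 11 H2B promoters and 5 of 13 H2A promoters, and in none of the 6 H1, 4 H3 and 8 H4 promoters. It was present in 1.6% of all 32851 promoters of the table. The CCAAT box was present in every one of the H1, H2A, H2B and H3 promoters and in 2 of 8 H4 promoters, against 33.8% of all promoters. The H1 box was present in 5 of 6 H1 promoters, against 6.25% of all. TATAAA was present in 18 of 42 histone promoters, against 7.59% of all. H2bc6 has 2 promoters in the table, which makes 42 promoters for 41 genes, and some neighbouring H2A and H2B genes share part of the same DNA. None of the 135 matches overlapped a match of another motif. These counts describe letters in these windows and do not show binding.

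The expression level used throughout is a log2 processed signal from which the array's 75th percentile was subtracted, so a level of 0 lies at that percentile. The 75th percentile intensity had a median of 2429 with sham and 2358 with radiation in wild type, and of 1679 with sham and 1245 with radiation in the labelled knockout. All wild-type arrays were on 1 slide and all labelled knockout arrays on another, so genotype and slide cannot be told apart, while each irradiation comparison within a genotype lies within 1 slide. The probe for Neil1 read -4.32 to -3.30 on the wild-type arrays and -2.60 to -2.15 on the labelled knockout arrays, above the wild type, and its place relative to the deleted part is not stated in the labels. The genotype is therefore written as "labelled knockout". Changes were tested with limma in 1 model over all genes, with Benjamini-Hochberg adjustment within each comparison, and a gene is called at an adjusted p under 0.05.

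After irradiation most histone genes lay slightly above sham in both genotypes, and only H2bc22 passed the test. In wild type, irradiated minus sham was positive for 41 of 45 genes, with a median of 0.24 on the log2 scale, against 54.5% of all genes and a median of 0.014. In the labelled knockout it was positive for 37 of 45 genes, with a median of 0.24, against 49.8% of all genes and a median of -0.00097. No histone gene was called by limma in either genotype alone. Of all genes, 0.0746% were called in wild type and 0.12% in the labelled knockout. At an unadjusted p under 0.05, 12 histone genes were higher and 0 lower in wild type, against 1.97% of all genes in either direction. In the labelled knockout these counts were 8 and 0, against 4.63%. All 4 irradiated arrays lay above all 4 sham arrays for 9 histone genes in wild type (0.866% of all genes) and for 4 in the labelled knockout (1.16%). They lay entirely below sham for 0 histone genes in either genotype (1.1% and 1.03% of all genes). Averaged over both genotypes, 41 of 45 differences were positive (51.7% of all genes), with a median of 0.22, and 1 gene was called, against 0.304% of all genes. With the array's brightness as a covariate, the median in the labelled knockout was 0.074, with 23 of 45 positive, and the averaged median was 0.10. The part of brightness in these small shifts was not tested further.

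**Figure D1:**
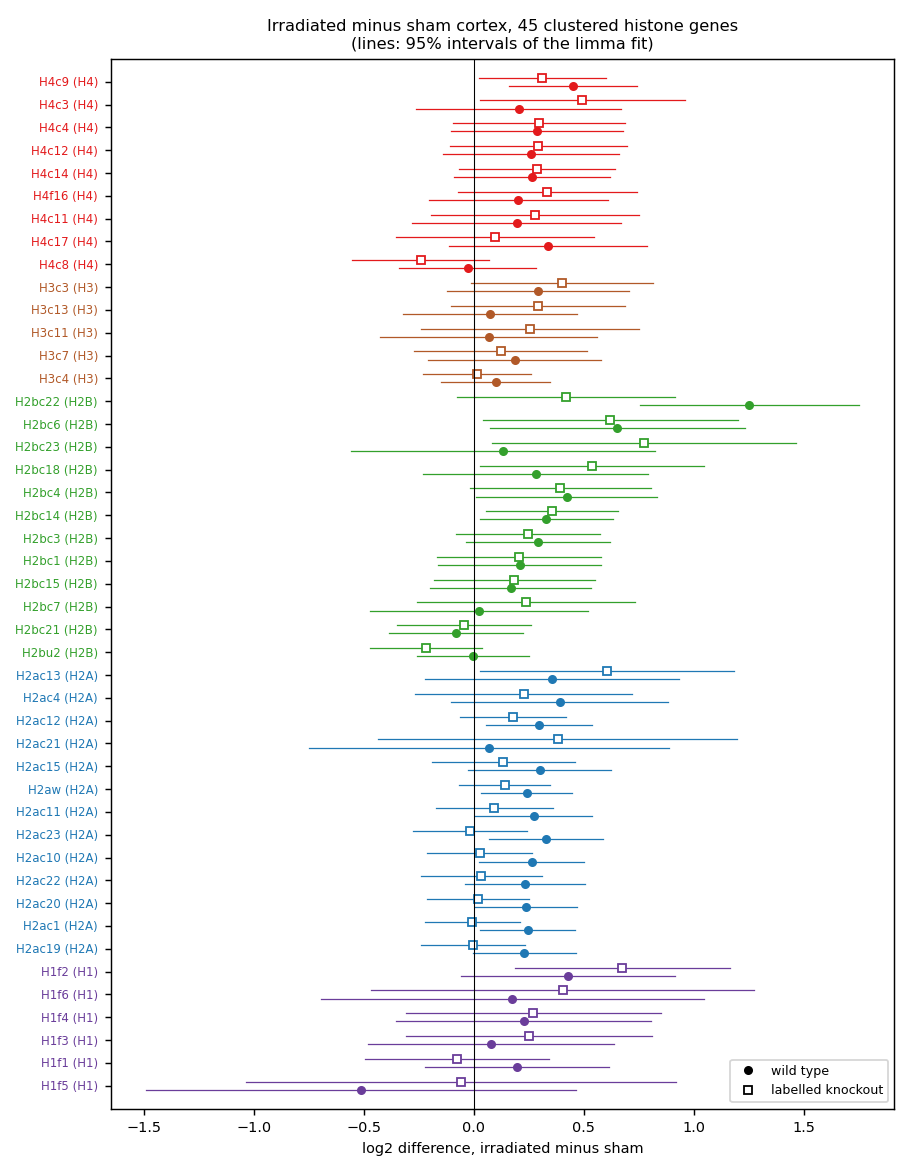
Difference between irradiated and sham cortex (x axis, log2) for each of the 45 histone genes (y axis, coloured by class), in wild type (filled circles) and in the labelled knockout (open squares), with 95% intervals of the limma fit. Nearly all points lie to the right of 0, most intervals cross 0, and H2bc22 in wild type lies farthest right at 1.25.

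The H2B genes held the largest differences. H2bc22, an H2B gene with a dim probe, read -6.79, -6.80, -6.74 and -6.26 in wild type with sham and -5.67, -5.60, -5.46 and -4.86 with radiation. In the other genotype it read -6.60, -6.06, -6.18 and -6.57 with sham and -5.47, -5.79, -6.54 and -5.94 with radiation. The irradiated wild-type arrays were all above the wild-type sham arrays, while the labelled knockout groups overlapped. Its difference was 1.25 ± 0.23 (SE) in wild type, a 2.38-fold difference with an adjusted p of 0.0884 (limma), and 0.42 ± 0.23 in the labelled knockout. Averaged over genotypes it rose by 0.84 ± 0.16, or 1.78-fold, with an adjusted p of 0.0499, just under the threshold. The probe was well above background on 13 of 16 arrays, namely 4 sham and 4 irradiated wild-type arrays and 3 sham and 2 irradiated labelled knockout arrays. The call was lost, and no histone gene was called, when any 1 of 14 of the 16 arrays was left out (adjusted p up to 0.126). It was also lost under 7 of 12 alternatives that changed another setting (adjusted p up to 0.267), the last with normexp background correction, where the averaged difference was 0.39.

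H2bc14 had closely spaced arrays in the irradiated labelled knockout. It read 1.36, 1.65, 1.82 and 1.65 with sham and 1.91, 1.86, 2.35 and 1.68 with radiation in wild type, and 1.68, 1.40, 1.59 and 1.26 with sham and 1.82, 1.80, 1.83 and 1.89 with radiation in the labelled knockout. Irradiated arrays were all above sham arrays in the labelled knockout and overlapped with sham in wild type. The difference was 0.33 ± 0.14 in wild type and 0.35 ± 0.14 in the labelled knockout, and 0.34 ± 0.10 on average (adjusted p 0.428, limma).

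H2bc23 (Hist1h2bq) was another dim probe, above background on 12 arrays, 4 in each wild-type group and 2 in each labelled knockout group. It read -5.67, -5.98, -7.01 and -6.10 with sham and -5.74, -5.67, -6.43 and -6.41 with radiation in wild type, and -7.03, -6.70, -6.14 and -6.61 with sham and -5.29, -5.42, -6.43 and -6.24 with radiation in the labelled knockout. All its groups overlapped under irradiation, and its difference was 0.13 ± 0.32 in wild type and 0.77 ± 0.32 in the labelled knockout. Of the remaining H2B genes, H2bc6 (Hist1h2be) had the next largest averaged difference at 0.64 ± 0.19, with 0.65 in wild type and 0.62 in the labelled knockout. H2bc4 (Hist1h2bc) gave 0.41 ± 0.14. H2bc21 (Hist2h2be), which encodes the H2BE variant known from olfactory neurons, gave -0.065 ± 0.10, and H2bu2 (Hist3h2ba) gave -0.11 ± 0.084. Neither passed the test. In each genotype 10 of the 12 H2B differences were positive.

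The 13 H2A genes differed from the H2B genes in the evenness of their values. In wild type all 13 differences were positive, from 0.068 to 0.39, with a median of 0.26, and 7 of the 9 genes with non-overlapping wild-type groups were H2A genes. In the labelled knockout 10 of 13 were positive, with a median of 0.093, and no H2A gene had non-overlapping groups. None was called. H2ac1 (Hist1h2aa), a gene known for its testis-specific variant, read 3.68, 3.68, 3.55 and 3.77 with sham and 3.84, 3.85, 3.99 and 3.97 with radiation in wild type, and 3.86, 3.95, 3.83 and 3.62 with sham and 3.58, 3.81, 3.89 and 3.95 with radiation in the labelled knockout. Irradiated wild-type arrays were all above sham, by 0.25 ± 0.10, and the labelled knockout groups overlapped, with a difference of -0.0082 ± 0.10.

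H2ac12 (Hist1h2ah) read 3.82, 3.74, 3.56 and 3.57 with sham and 3.96, 3.99, 4.11 and 3.82 with radiation in wild type, and 3.77, 3.93, 3.82 and 3.64 with sham and 3.70, 3.97, 4.03 and 4.17 with radiation in the labelled knockout. Only wild-type sham replicate 1 reached the lowest irradiated wild-type array, at 3.82 on both, and the averaged difference was 0.24 ± 0.079 (adjusted p 0.619, limma). H2aw (Hist3h2a), the only H2A gene of the Hist3 cluster measured here, read 1.35, 1.42, 1.23 and 1.30 with sham and 1.58, 1.53, 1.64 and 1.52 with radiation in wild type, and 1.52, 1.53, 1.60 and 1.24 with sham and 1.55, 1.52, 1.81 and 1.58 with radiation in the labelled knockout. Its wild-type groups did not overlap, and its averaged difference was 0.19 ± 0.068 (adjusted p 0.72, limma).

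H2ac23, whose older names in the table are Hist1h2ao and Hist1h2ap, read 2.42, 2.31, 2.08 and 2.26 with sham and 2.40, 2.70, 2.73 and 2.56 with radiation in wild type, and 2.42, 2.58, 2.33 and 2.35 with sham and 2.11, 2.43, 2.45 and 2.62 with radiation in the labelled knockout. Its groups overlapped in both genotypes, in wild type only through sham replicate 1 and irradiated replicate 1. The difference was 0.33 ± 0.12 in wild type and -0.018 ± 0.12 in the labelled knockout, and the difference between these responses was -0.34 ± 0.17 with an unadjusted p of 0.0627 (limma, adjusted p 1.0). For H2ac1 that difference was -0.25 ± 0.14 with an unadjusted p of 0.0969. Of the 13 H2A differences between responses 11 were negative, 0 had an unadjusted p under 0.05 and none was called.

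Among the 6 linker histone genes, H1f2 had the largest averaged difference. It read -2.94, -2.52, -2.68 and -2.36 with sham and -1.82, -2.35, -1.92 and -2.71 with radiation in wild type, and -2.01, -2.94, -1.94 and -2.47 with sham and -1.50, -1.77, -1.75 and -1.64 with radiation in the labelled knockout. The irradiated labelled knockout arrays were all above the labelled knockout sham arrays, and the wild-type groups overlapped. Its difference was 0.43 ± 0.23 in wild type and 0.68 ± 0.23 in the labelled knockout, with an averaged 0.55 ± 0.16 and an adjusted p of 0.428 (limma). The other H1 genes ran from -0.29 for H1f5 (Hist1h1b) to 0.29 for H1f6 (Hist1h1t), the testis form, on average. H1f5 had the widest interval, reading from -5.25 to -2.83 over the wild-type arrays, and its 95% interval in wild type ran from -1.49 to 0.46.

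The H3 and H4 genes were also above sham on average in 13 of 14 cases. H4c9 (Hist1h4i) was the only one of the 45 genes whose irradiated and sham arrays did not overlap in either genotype. In the labelled knockout this holds only past the second decimal, with the nearest sham and irradiated arrays both at -3.27. H4c9 read -3.62, -3.59, -3.65 and -3.35 with sham and -3.24, -3.11, -2.81 and -3.25 with radiation in wild type, and -3.30, -3.33, -3.27 and -3.49 with sham and -3.27, -2.66, -3.16 and -3.05 with radiation in the labelled knockout. Irradiated arrays were above sham arrays by 0.45 ± 0.14 in wild type and 0.31 ± 0.14 in the labelled knockout, and by 0.38 ± 0.096 on average (adjusted p 0.214, limma). The exception among H3 and H4 genes was H4c8 (Hist1h4h), with -0.13 ± 0.10 on average.

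**Figure D2:**
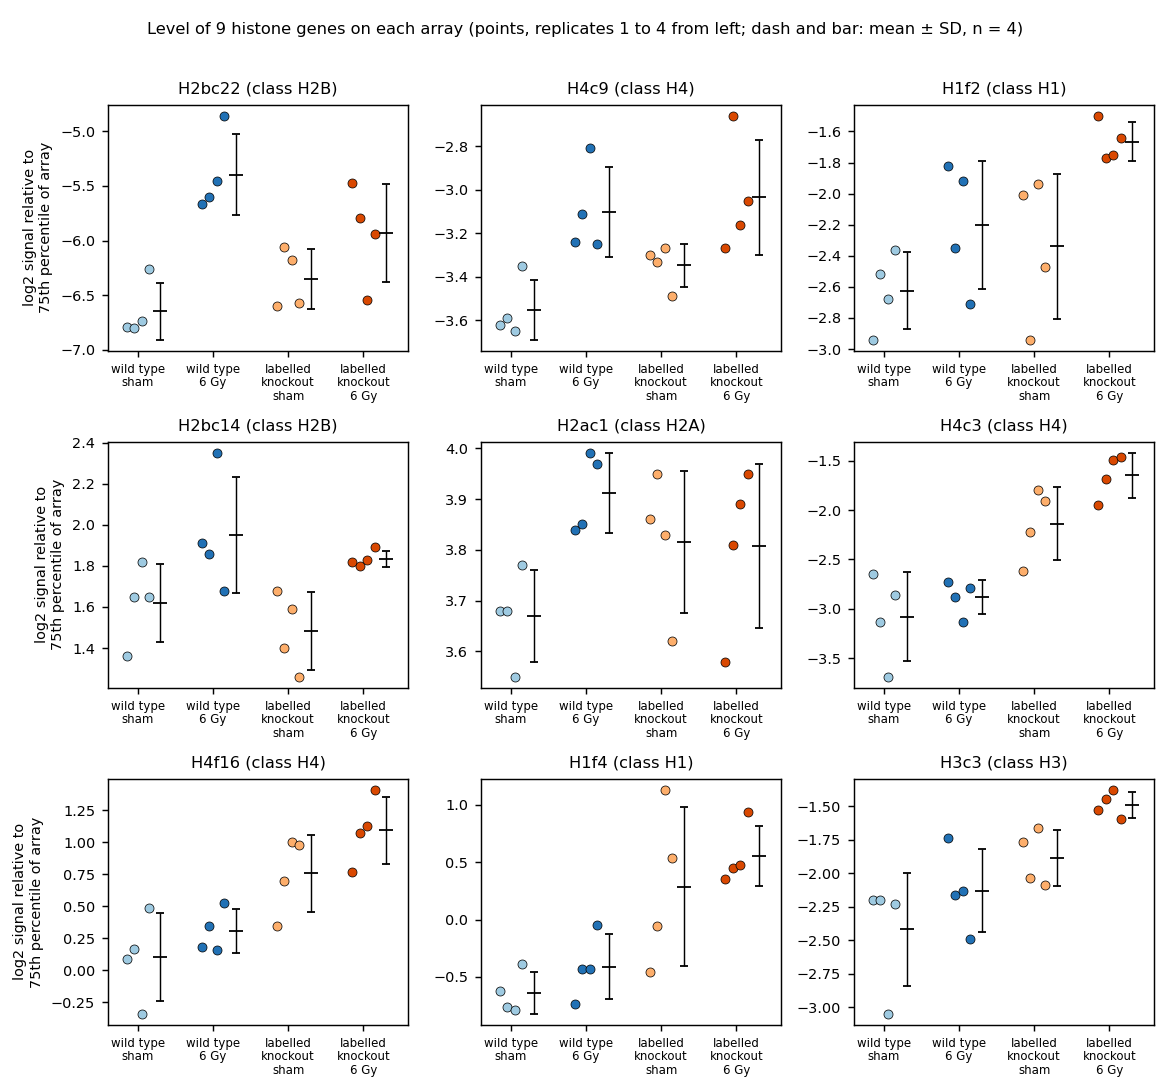
Level of 9 histone genes on each of the 16 arrays (y axis, log2 signal relative to the 75th percentile of the array; x axis, the 4 groups; points are replicates 1 to 4, dash and bar are mean ± SD, n = 4). H2bc22, H4c9 and H2ac1 show irradiated wild-type arrays above wild-type sham, and H4c3, H4f16, H1f4 and H3c3 show the labelled knockout arrays mostly above the wild type.

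Between genotypes the histone genes divided by class. Averaged over treatments, the labelled knockout was higher for 14 called histone genes and lower for 0, where 5.4% of all genes were called, 3.17% higher and 2.23% lower. The 14 were 6 of 9 H4 genes, 3 of 5 H3 genes, 2 of 6 H1 genes, 2 of 13 H2A genes and 1 of 12 H2B genes. The median difference was 0.65 for H4, 0.55 for H1, 0.48 for H3, 0.048 for H2A and -0.11 for H2B, against -0.030 over all genes. The averaged difference was positive for 31 of 45 histone genes, against 44.1% of all genes. The count of called genes was 9 without irradiated wild-type replicate 2, without irradiated wild-type replicate 3 or without labelled knockout sham replicate 3. In sham arrays alone 0 histone genes were called (0.0516% of all genes), with 15 higher and 1 lower at an unadjusted p under 0.05 (7.69% of all genes), and 5 had all labelled knockout arrays above all wild-type arrays (2.73% of all genes) and 0 below (2.09%). After irradiation 1 was called higher (1.18% of all genes called, 0.82% higher), 15 were higher and 2 lower at an unadjusted p under 0.05 (16.6% of all genes), and 13 lay entirely above the wild type (4.3%) and 1 entirely below it (4.44%). That call, H4c3, was lost without any 1 of irradiated wild-type replicates 2 and 3 and irradiated labelled knockout replicates 2, 3 and 4 (0 called in each case), and the count was 5 without labelled knockout sham replicate 1 and 2 without labelled knockout sham replicate 3 or 4 or wild-type sham replicate 3.

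The H4 and H1 levels moved with the brightness of the arrays. The median H4 deviation from each gene's 16-array mean was -0.36, -0.41, -0.88 and -0.12 on wild-type sham arrays, and -0.29, -0.12, -0.29 and -0.04 on irradiated wild-type arrays. It was -0.21, 0.13, 0.44 and 0.36 on labelled knockout sham arrays, and 0.16, 0.50, 0.49 and 0.85 on irradiated labelled knockout arrays, of which the last was the dimmest of all 16. Over all genes the same median stayed between -0.04 and 0.05 on every array. Within groups, a doubling of the 75th percentile intensity went with a median change of -0.80 for the H4 genes, -0.57 for H1, -0.33 for H2A, 0.16 for H3 and 0.11 for H2B, against -0.075 over all genes. Of the 14 called genes, 12 had a negative slope, against 55.6% of all genes. With brightness as a covariate 0 histone genes were called between genotypes, and the median averaged difference was 0.026 over all 45, 0.084 for H4, 0.18 for H1 and 0.53 for H3. Of the 14 called genes, 12 kept a positive difference with the covariate, 10 had less than 50% of their value without it, and 2 were larger, H3c13 at 0.71 ± 0.24 (SE, adjusted p 0.136, limma) and H3c3 at 0.69 ± 0.26 (adjusted p 0.154). H4c3 gave 0.61 ± 0.25. The median SE of the 14 differences was 0.24 with the covariate and 0.16 without it. Over all genes 942 were called without the covariate and 7 with it. Without replicates 3 and 4 of the irradiated labelled knockout, the 2 dimmest arrays, 3 histone genes were called. Brightness, slide and genotype cannot be told apart across the groups.

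**Figure D3:**
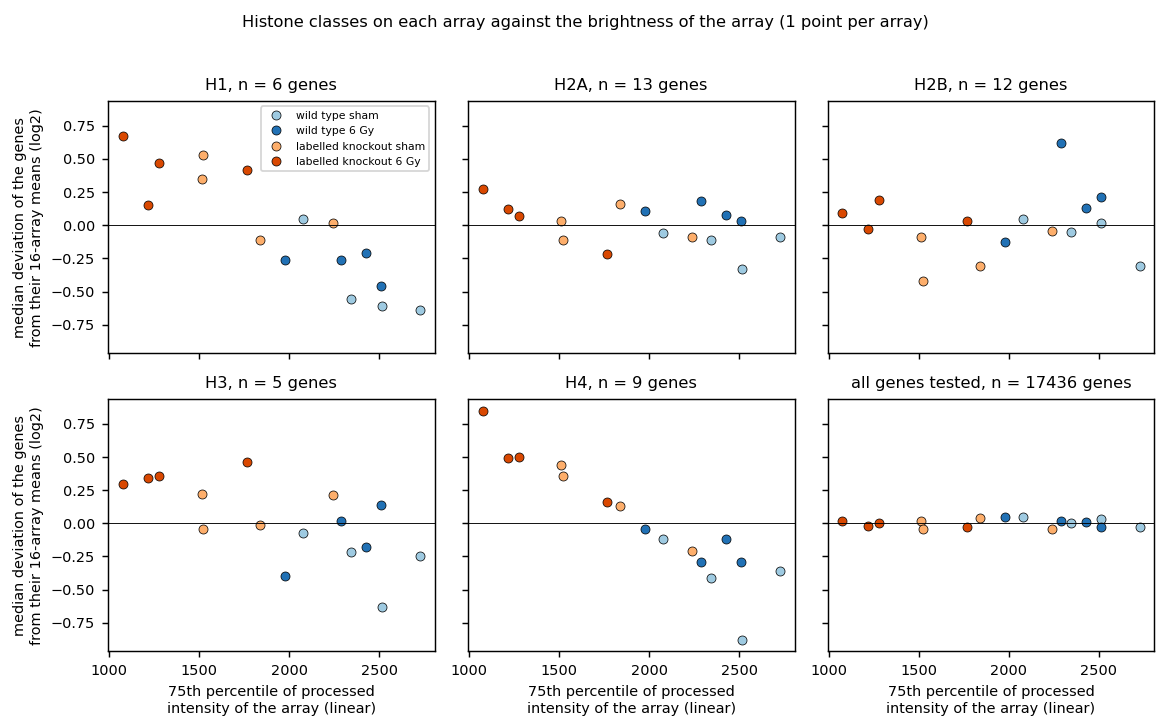
Median deviation of each histone class from the genes' 16-array means (y axis, log2) on each array, against the array's 75th percentile of processed intensity (x axis, linear), coloured by group, with all 17436 genes for comparison. The H4 and H1 medians are higher on dim arrays, also within groups for H4, while the median of all genes stays between -0.04 and 0.05.

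H4c3 had the largest genotype difference of the histone genes. It read -2.65, -3.13, -3.69 and -2.86 with sham and -2.73, -2.88, -3.13 and -2.79 with radiation in wild type, and -2.62, -2.22, -1.80 and -1.91 with sham and -1.95, -1.69, -1.49 and -1.46 with radiation in the labelled knockout. The labelled knockout sham arrays were all above the wild-type sham arrays, the nearest being -2.62 against -2.65, and the irradiated groups were well apart. Its difference was 0.94 ± 0.22 in sham (adjusted p 0.286, limma) and 1.23 ± 0.22 after irradiation (adjusted p 0.0198). Averaged over treatments it was higher by 1.09 ± 0.15, or 2.13-fold, with an adjusted p of 0.00293.

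H4c11 read -2.07, -1.90, -2.34 and -1.49 with sham and -1.91, -1.76, -1.91 and -1.44 with radiation in wild type, and -1.64, -1.21, -0.81 and -0.80 with sham and -1.23, -0.75, -0.88 and -0.48 with radiation in the labelled knockout. Its sham groups overlapped and its irradiated groups did not. The averaged difference was 0.88 ± 0.16, or 1.84-fold, with an adjusted p of 0.00823 (limma).

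The brightest H4 probes were nearly superimposable. H4c4 (Hist1h4d) read 3.61, 3.54, 3.11 and 3.79 with sham and 3.65, 3.86, 3.70 and 3.98 with radiation in wild type, and 3.75, 4.11, 4.41 and 4.34 with sham and 4.11, 4.39, 4.47 and 4.83 with radiation in the labelled knockout. H4c12 (Hist1h4k) read 2.44, 2.48, 2.05 and 2.81 with sham and 2.61, 2.73, 2.58 and 2.89 with radiation in wild type, and 2.72, 3.07, 3.40 and 3.36 with sham and 3.09, 3.43, 3.40 and 3.79 with radiation in the labelled knockout. In both genes, labelled knockout sham replicate 1 was within the range of the wild-type sham arrays and irradiated labelled knockout replicate 4 was the highest of all 16. The averaged difference was 0.65 ± 0.13 for H4c4 (adjusted p 0.0146, limma) and 0.71 ± 0.13 for H4c12 (adjusted p 0.0109). A dimmer probe of each gene gave 0.71 for H4c4 and 0.85 for H4c12.

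H4c14 (Hist2h4), from the Hist2 cluster, read 2.39, 2.30, 1.88 and 2.50 with sham and 2.47, 2.60, 2.42 and 2.63 with radiation in wild type, and 2.50, 2.85, 3.15 and 3.06 with sham and 2.88, 3.14, 3.20 and 3.47 with radiation in the labelled knockout. H4f16 (Hist4h4), the only gene of the Hist4 cluster, read 0.09, 0.17, -0.34 and 0.49 with sham and 0.18, 0.35, 0.16 and 0.53 with radiation in wild type, and 0.35, 0.70, 1.0 and 0.98 with sham and 0.77, 1.07, 1.13 and 1.41 with radiation in the labelled knockout. For H4c14 the labelled knockout sham arrays were at or above the highest wild-type sham array (2.50 on both at 2 decimals), and for H4f16 the sham groups overlapped. The irradiated groups did not overlap for either gene. The averaged differences were 0.63 ± 0.12 for H4c14 (adjusted p 0.0104, limma) and 0.72 ± 0.13 for H4f16 (adjusted p 0.0109). The H4 genes not called between genotypes were H4c17 (Hist1h4m) at 0.35 ± 0.15, H4c9 at 0.14 ± 0.096 and H4c8 at -0.11 ± 0.10.

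Probes of 1 class often varied together over the arrays. After each gene's own mean was subtracted, H4c4, H4c12, H4c14 and H4f16, chosen here after their values were seen, lay within 0.16 of each other on every array, while their common value ranged over 1.70 between arrays. They lie in 3 different clusters. Likewise H2bc1, H2bc3, H2bc14 and H2bc15 lay within 0.35 of each other and ranged over 1.11, with irradiated wild-type replicate 3 the highest and labelled knockout sham replicate 4 the lowest. The 9 H2A genes above the 75th percentile on every array, H2aw left out, lay within 0.48 of each other and ranged over 0.54. Which copies each probe reads was not tested.

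Of the linker histones, H1f4 and H1f3 (Hist1h1d) were called. H1f4, a main somatic H1, read -0.62, -0.76, -0.79 and -0.39 with sham and -0.74, -0.43, -0.43 and -0.05 with radiation in wild type, and -0.46, -0.06, 1.13 and 0.54 with sham and 0.35, 0.45, 0.48 and 0.94 with radiation in the labelled knockout. Wild-type arrays were all below 0, and labelled knockout arrays were above 0 except sham replicates 1 and 2. The averaged difference was 0.95 ± 0.19, or 1.93-fold, with an adjusted p of 0.0152 (limma). H1f3 read -5.66, -5.20, -5.93 and -4.89 with sham and -5.59, -5.63, -4.64 and -5.52 with radiation in wild type, and -5.06, -4.63, -4.38 and -4.47 with sham and -4.81, -4.18, -4.37 and -4.18 with radiation in the labelled knockout. Irradiated wild-type replicate 3 stood apart from its group and overlapped with the irradiated labelled knockout arrays, and the averaged difference was 0.87 ± 0.18 (adjusted p 0.0185, limma). The other 4 H1 genes had positive averaged differences, from 0.27 for H1f5 to 0.69 for H1f6, and were not called.

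The 3 called H3 genes all had probes below the 75th percentile. H3c3 (Hist1h3c) read -2.20, -2.20, -3.05 and -2.23 with sham and -1.74, -2.16, -2.13 and -2.49 with radiation in wild type, and -1.77, -2.04, -1.66 and -2.09 with sham and -1.53, -1.45, -1.38 and -1.60 with radiation in the labelled knockout. Labelled knockout arrays were above wild-type arrays within sham and within irradiated mice, and wild-type sham replicate 3 was the lowest of all. The averaged difference was 0.59 ± 0.14 (adjusted p 0.0263, limma), and its irradiation difference in the labelled knockout was 0.40 ± 0.19, with no overlap. The genotype call of H3c3 was lost without any 1 of 3 of the arrays (adjusted p up to 0.0627).

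H3c13 (Hist2h3b) read -2.78, -2.46, -2.76 and -2.41 with sham and -2.13, -2.52, -2.31 and -3.16 with radiation in wild type, and -2.06, -2.31, -2.16 and -2.38 with sham and -1.85, -2.05, -1.75 and -2.10 with radiation in the labelled knockout. Its labelled knockout arrays were above the wild-type arrays within each treatment. The averaged difference was 0.48 ± 0.13 (adjusted p 0.0457, limma), and the adjusted p was above the threshold, at most 0.0941, without any 1 of 14 of the arrays. H3c11 (Hist1h3i) read -6.56, -6.49, -7.28 and -5.79 with sham and -6.67, -6.58, -6.45 and -6.16 with radiation in wild type, and -5.90, -6.17, -5.94 and -5.80 with sham and -5.64, -5.49, -5.86 and -5.80 with radiation in the labelled knockout. This probe was above background on 15 arrays, its irradiated groups did not overlap, and the averaged difference was 0.67 ± 0.16 (adjusted p 0.0303, limma). The H3c11 call was lost without any 1 of 7 of the arrays (adjusted p up to 0.0635). It was also lost under 6 of 12 alternatives that changed another setting (adjusted p up to 0.430). H3c4 (Hist1h3d), the only H3 probe above the 75th percentile, gave 0.14 ± 0.081 and was not called.

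Among H2A and H2B genes the calls fell on dim probes or on those that read unlike the rest of their class. H2ac4 (Hist1h2ab) read -1.0, -1.27, -1.74 and -0.89 with sham and -1.11, -0.88, -0.72 and -0.64 with radiation in wild type, and -1.04, -0.27, -0.10 and -0.46 with sham and -0.74, -0.15, -0.10 and 0.03 with radiation in the labelled knockout. The sham groups overlapped, as did the irradiated groups, and the averaged difference was 0.68 ± 0.16 (adjusted p 0.029, limma). The H2ac4 call was lost without any 1 of 8 of the arrays (adjusted p up to 0.0677). H2ac21 (Hist2h2ab), above background on 10 arrays (2 sham and 1 irradiated in wild type, 3 sham and 4 irradiated in the labelled knockout), read -6.92, -7.36, -7.87 and -6.43 with sham and -6.93, -7.32, -7.47 and -6.59 with radiation in wild type, and -7.36, -6.59, -5.68 and -5.66 with sham and -6.37, -6.18, -5.73 and -5.50 with radiation in the labelled knockout. Its averaged difference was 0.98 ± 0.27 (adjusted p 0.0495, limma), and the call was lost without any 1 of 13 of the arrays (adjusted p up to 0.106). With 3 of 8 wild-type arrays above background, this probe passed the filter on dim probes only through the labelled knockout arrays, where it is brighter, so its difference is a rough value. With probes above background on all 16 arrays, 12 histone genes were called between genotypes on average, against 14 with the main filter. The main filter had 5.4% of all genes called, and the share with the stricter filter is not given here. The 9 bright H2A probes gave averaged differences between -0.028 and 0.059, none of them called.

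H2bc18 (Hist2h2bb) was the only H2B gene called between genotypes. It read -3.14, -3.62, -3.80 and -3.10 with sham and -3.36, -2.71, -3.39 and -3.09 with radiation in wild type, and -3.16, -2.84, -2.36 and -2.18 with sham and -2.31, -1.89, -2.38 and -1.80 with radiation in the labelled knockout. The irradiated groups did not overlap, and the averaged difference was 0.91 ± 0.17, or 1.88-fold (adjusted p 0.0104, limma). H2bc15 (Hist1h2bn) was the histone gene with the largest negative genotype difference. It read 0.11, 0.42, 0.81 and 0.58 with sham and 0.57, 0.54, 1.06 and 0.42 with radiation in wild type, and 0.46, 0.02, -0.04 and -0.19 with sham and 0.23, 0.26, 0.20 and 0.28 with radiation in the labelled knockout. After irradiation every labelled knockout array was below every wild-type array, and the averaged difference was -0.41 ± 0.12 with an adjusted p of 0.0618 (limma), not called. Of 16 fits that each left out 1 array, only 2 called H2bc15. Its adjusted p was 0.0386 without wild-type sham replicate 1 and 0.0274 without labelled knockout sham replicate 1, and up to 0.123 in the rest (limma). Over all 29 alternatives, these fits included, 7 called it and the adjusted p ran up to 0.508.

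**Figure D4:**
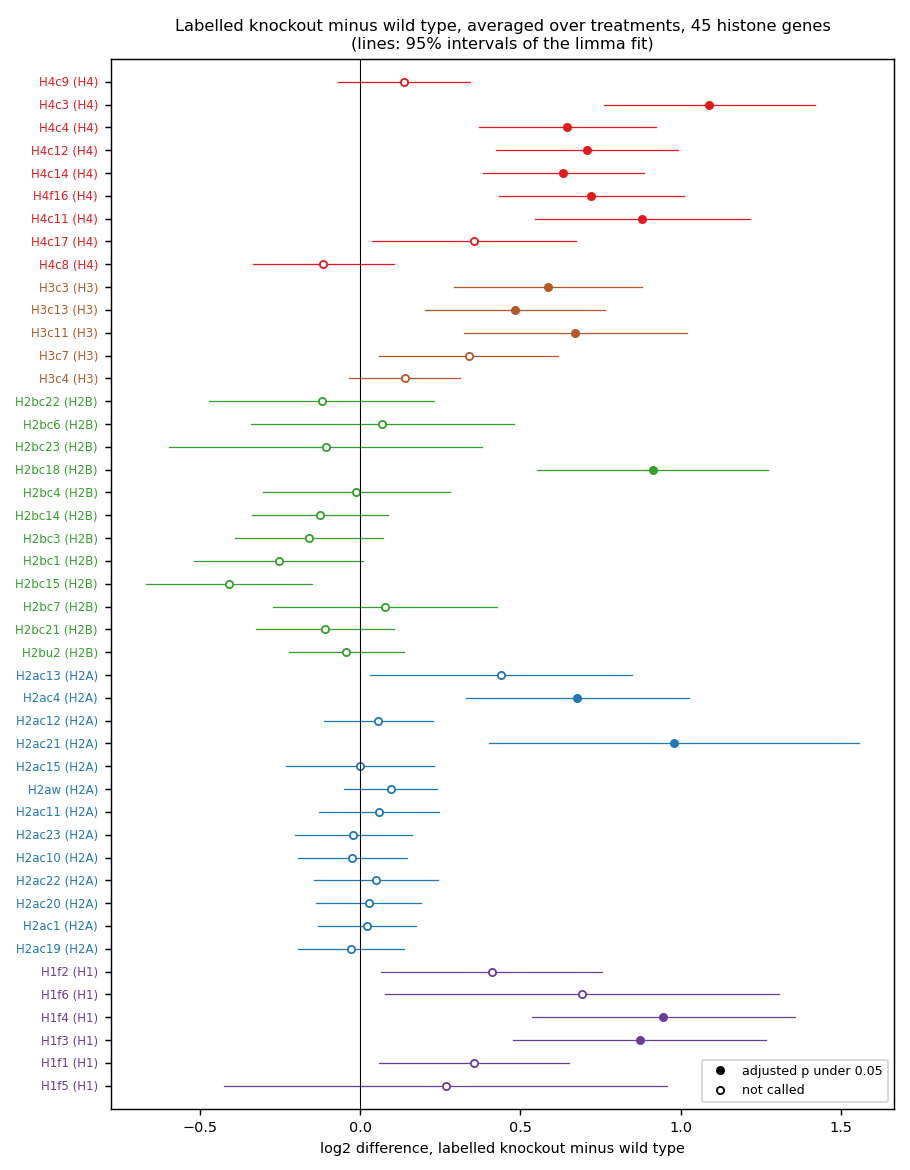
Difference between labelled knockout and wild type averaged over treatments (x axis, log2) for each of the 45 histone genes (y axis, coloured by class and in the same order as in the irradiation plot), with 95% intervals of the limma fit and filled circles where the adjusted p is under 0.05. Most H4, H3 and H1 genes lie to the right of 0, and most H2A and H2B genes lie close to 0.

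The response to irradiation was also compared between genotypes directly. No gene on the array was called for the interaction (0% of all genes, 1.27% with an unadjusted p under 0.05), and among the histone genes 0 were higher and 1 lower at an unadjusted p under 0.05. That gene was H2bc22, whose response in the labelled knockout minus that in wild type was -0.83 ± 0.33 (95% interval -1.54 to -0.13, unadjusted p 0.0232, adjusted p 1.0, limma). The median difference in response over the 45 genes was -0.0030, and 22 of 45 were positive, against 47.4% of all genes. The interval for H4c3 ran from -0.37 to 0.95 and that for H1f2 from -0.44 to 0.94, each including 0.

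Of H2A and H2B genes that are neighbours in the gene table, 6 pairs were measured. Some of these pairs, but not all, can share a promoter region. Under irradiation both members were positive in 5 of 6 pairs in wild type and in 3 of 6 in the labelled knockout. H2ac1 and H2bc1 gave 0.25 and 0.21 in wild type, and H2ac15 and H2bc15 gave 0.30 and 0.17. Other pairs were less alike in size. In wild type, H2ac22 (Hist1h2an) gave 0.23 under irradiation while its neighbour H2bc22 gave 1.25. H2ac23 gave -0.018 in the labelled knockout while its neighbour H2bc23 gave 0.77. H2ac4 and its neighbour H2bc3 (Hist1h2bb) both lie on the plus strand, apart from each other, and do not share a promoter region. They gave 0.31 and 0.27 for irradiation on average but 0.68 and -0.16 between genotypes. A second H2bc3 probe gave 0.19 between genotypes, opposite in sign to the probe used, so the direction for H2bc3 depends on the probe. The difference between neighbours was not tested, and the probes of both the H2A and the H2B members can read other copies of their class.

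Genes around histone supply were examined as lists. Of 26 mitosis genes tested, none was positive for irradiation on average, 8 were called lower, and the median was -0.39, where 0.304% of all genes were called and 51.7% were positive. Their mean level ran from -4.65 to -4.13 with sham and -5.26 to -5.14 with radiation in wild type, and from -4.67 to -4.28 with sham and -5.41 to -4.93 with radiation in the labelled knockout. The called genes were Pbk, Cenpf, Ccnb1, Nusap1, Pimreg, Prc1, Cdca3 and Ube2c. Ccnb1, the cyclin that drives entry into mitosis, fell by 1.94 ± 0.30 (SE, adjusted p 0.00657, limma), and Pbk, a mitotic kinase, fell by 2.51 ± 0.22 (adjusted p 2.91e-05). In irradiated wild type Pbk read -9.34 to -8.88 and Ccnb1 -8.59 to -7.42. The lowest levels flagged well above background on those arrays were higher, at -7.15 to -6.64. Some irradiated labelled knockout arrays were also below that limit for both genes. Pimreg, at -8.97 to -6.89 in irradiated wild type, was below the limit of its own array throughout that group. Cenpf, Nusap1 and Ube2c were below it on some irradiated arrays, and Prc1 and Cdca3 were above it on every one. The sizes of the falls of genes below the limit, and the list means with radiation, are therefore rough values. Among 40 DNA replication genes 0 were called, 14 differences were positive and the median was -0.029. At an unadjusted p under 0.05, 0 of these were higher and 3 lower (5% of all genes), namely Ccna2 at -0.74 ± 0.20, Tk1 at -0.60 ± 0.19 and Cdk2 at -0.54 ± 0.18 (SE). The 41 of 45 positive histone differences thus stood beside 0 of 26 for mitosis and 14 of 40 for replication genes. Of 18 p53 targets, 8 were called higher (0.166% of all genes), among them Cdkn1a, which arrests the cell cycle, at 1.32 ± 0.13 (adjusted p 0.000166, limma).

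Of the 12 histone variants listed as expressed outside S phase, some of which replace the clustered histones in non-dividing cells, 0 were called for irradiation or genotype. At an unadjusted p under 0.05, 0 passed for irradiation on average (5% of all genes) and 2 were higher and 2 lower between genotypes (21.7% of all genes). H2ax, the variant phosphorylated at DNA breaks, gave -0.45 ± 0.13 between genotypes (adjusted p 0.0595, limma), and H1f0, the H1 of quiescent cells, gave -0.40 ± 0.23 for irradiation. None of the 23 genes for histone mRNA transcription and processing was called for irradiation, with 0 at an unadjusted p under 0.05. Between genotypes 2 of them were called lower (2.23% of all genes), Npat, the activator of histone genes in S phase, at -0.42 ± 0.084 (adjusted p 0.0146, limma), and Ncbp2, a cap-binding subunit, at -0.24 ± 0.065 (adjusted p 0.0452). Of 22 histone chaperones, 3 were called higher in the labelled knockout (3.17% of all genes). For irradiation 0 were called, with 0 higher and 1 lower at an unadjusted p under 0.05. The 3 called between genotypes were Hjurp, which loads the centromeric H3 variant, at 1.08 ± 0.19 (adjusted p 0.00823, limma), Mms22l at 0.67 ± 0.16 (adjusted p 0.0272) and Atrx, which works with DAXX on H3.3, at 0.29 ± 0.073 (adjusted p 0.0367).

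**Figure D5:**
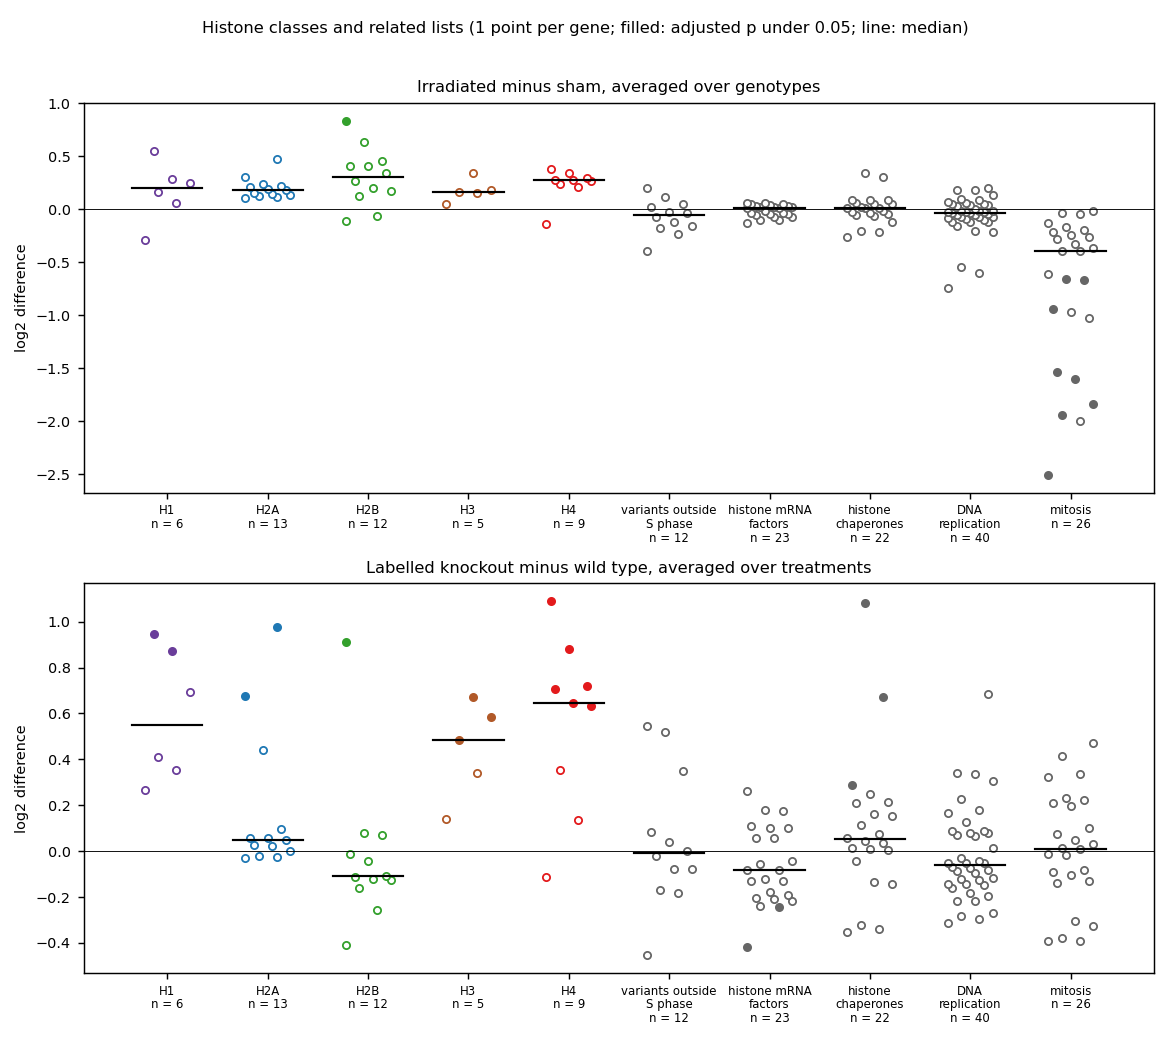
Log2 difference (y axis) for irradiation averaged over genotypes (top) and for genotype averaged over treatments (bottom), 1 point per gene, for the 5 histone classes and 5 related gene lists (x axis), filled where the adjusted p is under 0.05, with the median as a line. In the top panel the histone classes have medians from 0.16 to 0.30 and the mitosis genes a median of -0.39, and in the bottom panel H1, H3 and H4 lie above the other groups.

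Of 77 cell type and region markers tested, 7 were called for irradiation on average, or 9.09% against 0.304% of all genes. For this comparison 2 of 6 microglia genes, 2 of 6 oligodendrocyte precursor genes, 2 of 3 lymphocyte genes and 1 of 6 neutrophil and platelet genes were called lower, and no marker was called higher. All 6 oligodendrocyte precursor genes had negative differences. Their mean level ran from -0.20 to 0.11 with sham and -0.45 to -0.075 with radiation in wild type, and from -0.13 to -0.015 with sham and -0.50 to -0.34 with radiation in the labelled knockout. The mean of the microglia genes ran from 2.23 to 2.48, 1.88 to 2.15, 1.99 to 2.34 and 1.69 to 1.92 in the same order of groups. Of 6 progenitor and neuroblast genes, 5 were negative and 0 were called (0 at an unadjusted p under 0.05). Among lymphocyte markers, Cd3e, Cd79b and Il7r were above background on all 16 arrays, Ms4a1 on 1, and Cd3g and Cd79a on 0. Between genotypes, 1 endothelial gene and 1 pericyte gene were called higher, and 1 microglia gene and 1 oligodendrocyte precursor gene lower, which is 5.19% of the 77 markers against 5.4% of all genes. The part of cell composition in the histone values was not tested.

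Of the clustered histone genes with a probe, 3 fell below the filter. H2ac7 (Hist1h2ad) and H3c1 (Hist1h3a) were above background on 0 arrays and H3c8 (Hist1h3g) on 2, so the values of these 3 have no order. At the other edge of the filter, the dimmest member kept was H1f6, above background on 7 arrays (2 sham and 1 irradiated in wild type, 2 and 2 in the labelled knockout). It gave 0.29 ± 0.29 for irradiation and 0.69 ± 0.29 between genotypes on average and was not called. No member's probe was saturated on any array.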

How the data were processed

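Cortex RNA was labelled with Cy3 and read on 16 one-colour Agilent arrays. Per the file headers, the authors scanned and extracted each array with Feature Extraction 12.0.3.1, and the deposited processed signal is a spot intensity after background subtraction and spatial detrending, without scaling between arrays. The authors also deposited a score per feature for 42859 features, whose correlation with the same array's log signal was 0.9996 or more and which served as an alternative only.

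Control spots were left out, and outlier spots were set to missing. From the log2 of the signal each array's 75th percentile was subtracted. Probes well above background on at least 4 arrays (39589) were kept, 32994 probes were named through RefSeq accessions (GRCm38.p6 table, used for names, neighbours and promoters only, because the array design names an older build), and a gene was read from its brightest probe. Histone genes were found by current symbols and listed synonyms. The test over all 17436 genes used limma 3.58.1 (R 4.3.3) in 1 model with a mean per group and 12 residual degrees of freedom, in 7 contrasts, two-sided, with Benjamini-Hochberg adjustment within a contrast. The fit was tested on simulated data.

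The members, gene lists, tests and alternatives were chosen with earlier results of these data known. Values per array are given for histone genes called in any contrast, the 3 with the smallest p in each contrast, and the 2 per class with the smallest p for averaged irradiation and averaged genotype. Of the lists, called genes and up to 3 genes with the smallest p are eligible to be named. Other histone genes named with values were chosen after their values were seen. Alternatives were background correction (normexp with offset 50, run on the median signal because a mean signal was not used here), scaling, filters and variance models. Others were array weights, a replicate block, probe choice, the deposited scores and single arrays left out. Added after seeing the data were array brightness as a covariate, leaving out the 2 dimmest arrays, and a count from the same fit without the H2A and H4 genes.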

Additional observations from a re-analysis of the deposited data

Results flagged for a closer look

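Within the 24 genes given array by array, 96 groups of 4 arrays were screened for a value far from the other 3, by whether the ratio of its gap to the group's range was above Dixon's 95% critical value. Chance alone would mark about 1 group in 20, and 3 were marked. H1f3 in irradiated wild-type replicate 3 read -4.64, where the nearest of the other arrays read -5.52. H3c3 in wild-type sham replicate 3 read -3.05, where the nearest read -2.23. H2bc22 in wild-type sham replicate 4 read -6.26, where the nearest read -6.74.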

How the results depend on the processing

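Over the alternatives, 80.0% to 93.3% of the histone genes had a positive irradiation difference in wild type, 51.1% to 91.1% in the labelled knockout and 77.8% to 93.3% on average. Of 1166 values for named histone genes under an alternative, 1023 kept their direction and side of the threshold, 109 lost and 30 gained the call, and 4 reversed, all with brightness as a covariate: H1f4 for averaged irradiation (-0.084), H2ac21 (-0.22) and H2ac4 (-0.025) for averaged genotype and H4c11 for genotype after irradiation (-0.10). The single call for averaged irradiation was lost (0 called) under normexp, quantile normalization, no filter or the strict filter, trended variances, the replicate block, the second brightest probe and the brightness covariate, and leaving out single arrays gave 0 to 1. In wild type 1 gene was called under quantile normalization, scaled arrays, array weights, the deposited scores or without the 2 dimmest arrays, and 0 to 1 with single arrays left out, the 1 being H2bc22 without irradiated labelled knockout replicate 3 (adjusted p 0.0305, limma). Genotype in sham gave 3 calls with array weights.

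For genotype after irradiation (1 called, against 1.18% of all genes) the histone count was 19 under normexp, 9 without a filter and 2 with the strict filter or array weights. It was 5 with the mean of probes, 8 with the second brightest probe, and 0 with the brightness covariate or without the 2 dimmest arrays. With single arrays left out it was 0 to 5, while 17 to 470 of all genes were called. Calls over all genes changed with the setting too, as counted in part below. These histone counts are therefore not read as a result about the histone genes. For averaged genotype the histone count was 23 under normexp, 0 with the covariate, 3 without the 2 dimmest arrays and 9 to 14 with single arrays left out. Leaving out the H2A and H4 genes only took them from the tally of the same fit, so it was no test of the calls. Called genes of the other classes then numbered 0 after irradiation and 6 on average. The median histone difference for genotype after irradiation was 0.45 under normexp, -0.013 under quantile normalization, 0.027 with scaled arrays, 0.066 with the strict filter, 0.0092 with the deposited scores and -0.087 with the covariate. For averaged genotype it was 0.37 under normexp and 0.026 with the covariate. With the covariate it was also -0.19 for the interaction, 0.10 for averaged irradiation and 0.074 for irradiation in the labelled knockout, which was 0.13 without the 2 dimmest arrays. The causes were not tested.

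Over all genes, the count called for averaged genotype (942) was 4211 under normexp, 3326 without a filter, 2232 with array weights, 1457 with the mean and 2047 with the second brightest probe, 259 without the 2 dimmest arrays, 7 with the covariate and 364 to 1551 with single arrays left out. For genotype after irradiation (205) it ran from 0 with the covariate to 3382 under normexp, with 18 when only the 2 groups were fitted. For genotype in sham (9) it was 192 with array weights and 2 with only the 2 groups. For irradiation it was 87 (averaged, 53) and 24 (wild type, 13) with array weights, and in the labelled knockout (21) 6 with only the 2 groups, 13 with the replicate block, 11 with the covariate and 7 without the 2 dimmest arrays. The replicate numbers equal the column on the slide. Same-numbered deviations correlated above 0.1 in 1 of 4 pairs of the 2 wild-type groups and in 3 of 4 of the labelled knockout groups, where 3 of 4 sham arrays also correlated best with their own number, a hint from the data and not from the design. Since not every pair was above 0.1, the arrays were not treated as paired. With the replicate block 5 histone genes were called for genotype after irradiation and 0 for averaged irradiation, where H2bc22 had an adjusted p of 0.106 (limma). Dim probes limit precision: 6 members were not well above background on every array.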
